A study of Mus musculus with 33 samples.

Results

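This account describes 10 mouse genes of bile acid synthesis and transport in livers and liver tumours of mice lacking Sav1 or Mst1/2, components of the Hippo growth-control pathway. The genes were grouped by function and chosen with earlier results of these data known, so their counts beside those of all genes are descriptive. They are the synthesis enzymes Cyp7a1, Cyp8b1, Cyp27a1 and Cyp7b1, the conjugating enzyme Baat and the uptake carriers Slc10a1 and Slco1b2. The export pumps Abcb11 and Abcc2 and the repressor Nr0b2 complete the set. All probes annotated to these genes were used, 15 of the 45281 probes on an Illumina MouseWG-6 v2.0 array. Of these, 13 probes of 9 genes read above background on at least 3 of the 33 arrays, and those 9 genes were tested among 14018 genes of 19057 with a probe.

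RNA was measured on 33 arrays in 7 groups: 11 tumours and 7 surrounding livers of Sav1 -/- mice, 4 tumours and 3 surrounding livers of Mst1/2 -/- mice, and 3 Sav1 flox, 3 Mst1/2 flox and 2 wild-type normal livers. The tumours carry the label hepatocellular carcinoma. The flox livers are the controls of their own line. The labels used here name no Cre driver, no age, no sex and no sampling time. They do not say whether each sample came from its own animal, and the p-values rest on the sample-to-sample spread alone, part of which can be technical.

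Bile acids are made from cholesterol in hepatocytes. In the classical route Cyp7a1 sets the rate and Cyp8b1 adds the hydroxyl group that makes cholic acid, while the alternative route runs through Cyp27a1 and Cyp7b1. Baat joins bile acids to taurine or glycine, Slc10a1 (NTCP) and Slco1b2 take them up from portal blood, and Abcb11 (BSEP) and Abcc2 (MRP2) pump them and other organic anions into bile. Bile acids bind the nuclear receptor FXR (Nr1h4), which raises Nr0b2 (SHP), a repressor of Cyp7a1 and Cyp8b1, and also raises Abcb11.

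Start-site sequences from RefSeq (GRCm38.p6, 250 bases before to 50 bases after the annotated start) were matched for 7 of the 10 genes, with 8 starts in all. They are shown for Abcb11 and Slc10a1, the members that fell in tumours of both lines, and for Cyp8b1, which varied widely between livers. Capitals mark matches to 2 short motifs that were searched on both strands, AGGTCA (the nuclear receptor element) and CAAAGTCCA (a direct-repeat element bound by HNF4A). The Abcb11 window is chr2:69342567-69342866, the Slc10a1 windows are chr12:80968656-80968955 and chr12:80968030-80968329, and the Cyp8b1 window is chr9:121916256-121916555, all on the minus strand and written 5′ to 3′ along the gene.
Abcb11: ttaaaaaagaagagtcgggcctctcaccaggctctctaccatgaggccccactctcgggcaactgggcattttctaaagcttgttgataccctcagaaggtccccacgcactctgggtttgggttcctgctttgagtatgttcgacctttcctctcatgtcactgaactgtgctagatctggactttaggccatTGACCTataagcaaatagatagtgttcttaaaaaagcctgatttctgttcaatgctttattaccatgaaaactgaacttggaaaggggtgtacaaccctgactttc
Slc10a1 first start: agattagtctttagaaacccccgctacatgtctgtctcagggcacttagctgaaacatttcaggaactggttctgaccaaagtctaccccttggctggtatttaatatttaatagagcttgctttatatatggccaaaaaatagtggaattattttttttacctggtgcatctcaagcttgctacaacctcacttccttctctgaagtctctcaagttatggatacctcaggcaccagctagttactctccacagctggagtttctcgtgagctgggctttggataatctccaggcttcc
Slc10a1 second start: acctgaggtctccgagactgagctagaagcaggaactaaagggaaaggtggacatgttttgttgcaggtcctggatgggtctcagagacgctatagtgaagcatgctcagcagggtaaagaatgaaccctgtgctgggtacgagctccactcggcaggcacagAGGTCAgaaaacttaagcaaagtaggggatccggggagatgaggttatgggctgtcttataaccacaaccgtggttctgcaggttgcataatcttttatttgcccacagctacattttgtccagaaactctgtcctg
Cyp8b1: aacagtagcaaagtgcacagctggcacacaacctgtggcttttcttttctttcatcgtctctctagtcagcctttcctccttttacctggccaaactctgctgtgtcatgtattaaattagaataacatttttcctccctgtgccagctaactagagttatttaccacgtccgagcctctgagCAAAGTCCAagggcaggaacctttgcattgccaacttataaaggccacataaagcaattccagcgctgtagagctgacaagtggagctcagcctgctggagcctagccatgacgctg
The letters AGGTCA were present in 4 of the 8 member windows, against 16.3% of 32851 promoters. They lay on the gene's strand at the second Slc10a1 start and in Abcc2, and on the opposite strand in Abcb11 (where they read TGACCT) and Slco1b2. CAAAGTCCA was present in Cyp8b1, at positions -67 to -59 from the start, and in 0.475% of all promoters. Longer motifs that hold AGGTCA (CAAGGTCA, and a pair of copies 1 base apart in direct or inverted order) and the pair GTTAAT and ATTAAC 1 base apart had no match in the 8 windows; they were present in 1.56%, 0.0396%, 0.00913% and 0.00913% of all promoters. These are matches of letters and not measured binding.

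Levels below are log2 normalized signals. A difference is the first group named minus the second, in log2 units, with its standard error. It was tested with limma across all 14018 genes and called at a Benjamini-Hochberg adjusted p under 0.05. The arrays had median raw signals of 78.5 to 112, and 35.1% to 52.3% of probes read above background. By their pattern over probes that read above background on no array, the 33 arrays were divided into 3 sets that the labels do not name. The number of sets was fixed in advance. Mean correlations between arrays were 0.151 within set A, 0.014 within B and 0.021 within C. With arrays of the other sets they were -0.097, -0.079 and -0.040, so sets B and C hold together only weakly. Set A holds the 3 Sav1 flox livers with Sav1 surrounding livers 1 to 3 and Sav1 tumours 1 to 3. Set C holds Sav1 surrounding livers 4 to 7 and Sav1 tumours 4 and 5, and set B the other 18 arrays. Values within a set are given below wherever they change a call.

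The arrays gave no check of the deletions, and no probe was paired with Stk3 (Mst2). The Sav1 probe read 9.00 ± 0.49 in Sav1 tumours and 9.26 ± 0.33 in Sav1 flox livers (SD, n = 11 and 3). The Stk4 (Mst1) probe read 9.77 ± 0.17 in Mst1/2 tumours and 9.65 ± 0.12 in Mst1/2 flox livers (SD, n = 4 and 3). Knockout and flox groups overlapped for both, and the labels do not place these probes inside or outside the deleted region. The 3 Mst1/2 flox livers expressed Xist, the RNA of the inactive X chromosome, at 10.87 ± 0.34, while the means of the other 6 groups were 6.12 to 6.30. Kdm5d, a Y-linked gene, read 6.14 ± 0.14 in Mst1/2 flox livers, and the means of the other groups were 7.14 to 8.17. Eif2s3y, also Y-linked, averaged 6.10 in Mst1/2 flox livers and 6.83 in the 2 wild-type livers, which serve below as other controls, and 9.59 to 11.43 in the other 5 groups. In every comparison with Mst1/2 flox livers this female pattern and the genotype cannot be told apart. Within the Sav1 tumours the Y-linked genes varied: Eif2s3y read 7.47 to 12.20 and Kdm5d 6.00 to 8.32. Sav1 flox livers read 11.22 to 11.76 and 8.06 to 8.32, and Xist in these tumours read 6.01 to 6.48. Of 4 sex-linked markers tested, 2 fell in Sav1 tumours against Sav1 flox livers, where 16% of all genes fell. Against Sav1 surrounding livers 3 of the 4 fell, where 5.82% of all genes did. The cause was not tested.

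Abcb11 and Slc10a1 fell in tumours of both lines relative to their own flox livers, and none of the 9 tested genes rose in any of the 9 comparisons made between groups. In Sav1 tumours 5 of 9 members fell: Cyp7b1, Abcb11, Slc10a1, Abcc2 and Cyp27a1. Over all genes 33.3% changed and 16% fell in that comparison. Of the Sav1 tumours only 1 to 3 share set A with the 3 flox livers, so array set and tissue are partly confounded. Within set A, with 3 tumours and 3 flox livers, only Cyp7b1 was called, where 3.28% of all genes were. With set as a block 4 members were called, not including Abcc2 or Cyp27a1, where 19.8% of all genes were. In Mst1/2 tumours 4 of 9 members fell: Slc10a1, Slco1b2, Abcb11 and Baat, where 20.2% of all genes changed and 8.95% fell. In surrounding livers 1 member fell in each line, Cyp7b1 in Sav1 livers (10.5% of all genes changed, 5.48% fell) and Slc10a1 in Mst1/2 livers (3.87% changed, 1.32% fell). The median difference of the 9 members was -1.29 in Sav1 tumours, where the median of all genes was 0.05, and -1.36 in Mst1/2 tumours, where that of all genes was 0.00. All tumours or livers of the first group lay below all flox livers for 3 of 9 members in Sav1 tumours (6.63% of all genes), 8 of 9 in Mst1/2 tumours (20.7%), 1 of 9 in Sav1 surrounding livers (7.25%) and 5 of 9 in Mst1/2 surrounding livers (20.5%). The split of calls over all genes depended on the scaling. With arrays scaled on their medians in place of quantile normalization, 87.2% of the genes called in Sav1 tumours were higher (52.0% with quantile normalization), 82.4% in Mst1/2 tumours (55.7%), 92.2% in Sav1 surrounding livers (47.9%) and 89.1% in Mst1/2 surrounding livers (65.9%). The median of all genes was then 0.29, 0.18, 0.21 and 0.16 in these comparisons. Under that scaling 3 members fell in Sav1 tumours, 4 in Mst1/2 tumours and 1 in each surrounding liver group, and none rose, where 4.82%, 3.83%, 0.813% (Sav1) and 0.449% (Mst1/2) of all genes fell. Fewer hepatocytes and less RNA per hepatocyte cannot be told apart in these bulk samples.

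**Figure D1:**
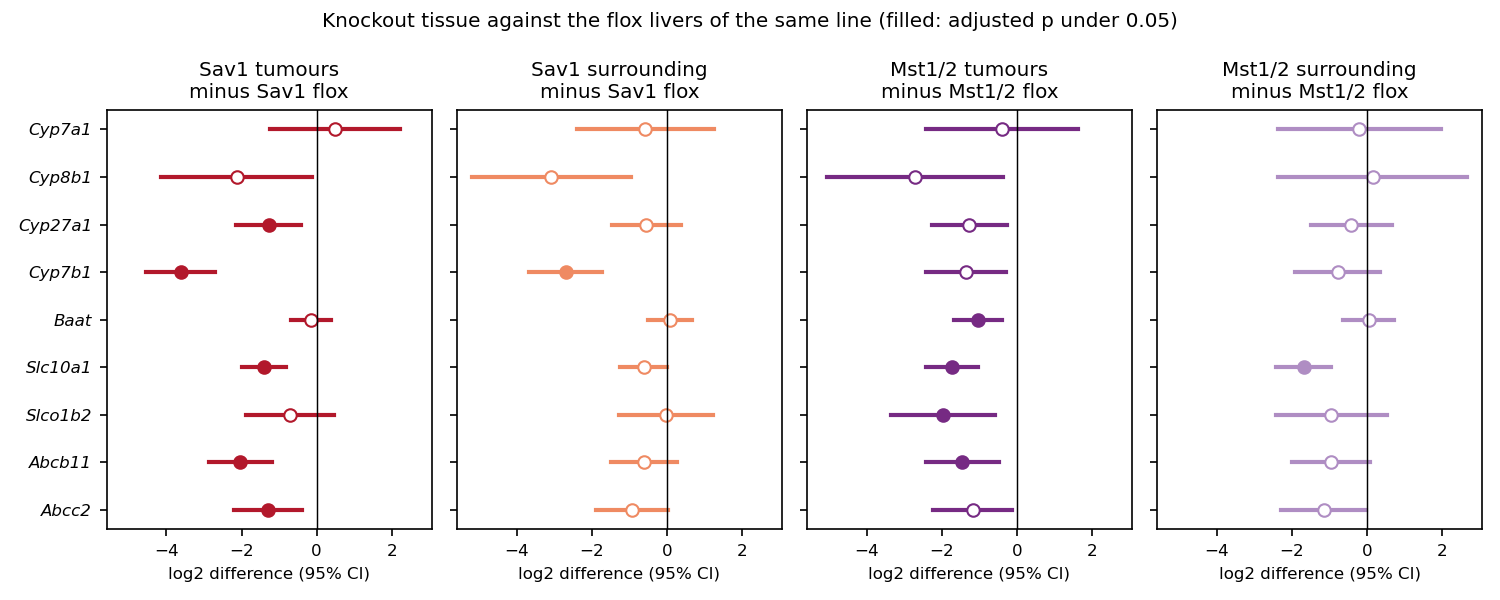
Differences of the 9 tested genes from the flox livers of the same line, in log2 units with 95% confidence intervals, for tumours and surrounding livers of both lines; filled points have an adjusted p under 0.05. Cyp7b1 lies at -3.62 in Sav1 tumours and -2.70 in Sav1 surrounding livers, and Slc10a1 is filled in both tumour groups.

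Cyp7b1, the oxysterol 7α-hydroxylase of the alternative route, had the widest range of group means, 4.61 log2 units. It read 10.49, 11.30 and 11.95 (lowest, median and highest) in the 11 Sav1 tumours, against 14.93, 14.79 and 14.93 in Sav1 flox livers. Every Sav1 tumour lay below every Sav1 flox liver. The difference was -3.62 ± 0.44, or 12.3-fold lower (adjusted p = 1.0e-06), and the call held in each of 26 alternative analyses, including within set A (-3.63 ± 0.33, adjusted p = 0.0062).

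The fall of Cyp7b1 was also present outside the tumours. The 7 Sav1 surrounding livers read 10.70, 12.35 and 13.61 (lowest, median and highest), all below the flox livers, with a difference of -2.70 ± 0.47 (6.48-fold lower, adjusted p = 8.2e-04). Within set A that difference was -3.00 (adjusted p = 0.063). With replicate number as a block its adjusted p was 0.14, where 0% of all genes were called. Sav1 tumours and Sav1 surrounding livers overlapped, and the difference between them was -0.93 ± 0.33 (adjusted p = 0.061).

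In the Mst1/2 line Cyp7b1 read 10.51, 10.84, 10.04 and 9.97 in tumours, 11.64, 9.89 and 11.22 in surrounding livers and 12.15, 11.90 and 11.03 in Mst1/2 flox livers. All 4 tumours lay below the 3 flox livers, but the difference of -1.36 ± 0.52 did not pass the test (adjusted p = 0.064). Within set B, which holds all arrays of the Mst1/2 line, its standard error was 0.31 and it was called (adjusted p = 0.012). That fit compared the same samples and called 32.9% of all genes, against 20.2% in the fit over all arrays. The Mst1/2 flox livers were themselves low: the difference between Mst1/2 flox and Sav1 flox livers was -3.19 ± 0.56 (9.11-fold lower, adjusted p = 0.0011). Cyp7b1 was the only member called between these groups, where 3.45% of all genes changed and 1.28% fell. Cyp7b1 is known as a male-biased gene in mouse liver, and the Mst1/2 flox livers are those with Xist. The wild-type livers read 15.45 and 14.44, and against them the differences were -4.61 in Mst1/2 tumours (adjusted p = 4.1e-06) and -4.03 in Mst1/2 surrounding livers (adjusted p = 1.3e-04). The difference between the lines in the tumour-minus-flox change was -2.27 ± 0.69 (adjusted p = 0.096), where 1.12% of all genes and no member were called. In that test 2 of 9 members and 17.1% of all genes had an unadjusted p under 0.05.

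Cyp8b1, the sterol 12α-hydroxylase, was steady in all normal livers and scattered in tumours and in the Sav1 surrounding livers. It read 9.96, 12.77 and 14.51 (lowest, median and highest) in Sav1 tumours and 7.73, 11.32 and 14.27 in Sav1 surrounding livers, against 14.24, 14.80 and 14.54 in Sav1 flox livers. The differences were -2.13 ± 0.98 in tumours (95% CI -4.13 to -0.12, adjusted p = 0.094) and -3.07 ± 1.04 in surrounding livers (95% CI -5.19 to -0.94, adjusted p = 0.055). In all, 10 of 11 tumours and 6 of 7 surrounding livers lay below every Sav1 flox liver. Leaving out Sav1 surrounding liver 1 moved the second to an adjusted p of 0.022, leaving out 3 to 0.045, and leaving out 6 to 0.038.

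In the Mst1/2 line the tumours were scattered and the surrounding livers lay close together. Cyp8b1 read 9.97, 9.09, 12.99 and 12.89 in Mst1/2 tumours and 14.35, 13.80 and 14.16 in Mst1/2 surrounding livers, against 13.77, 13.98 and 14.10 in Mst1/2 flox livers. Every Mst1/2 tumour lay below every Mst1/2 surrounding and flox liver, with differences of -2.87 ± 1.15 from surrounding (adjusted p = 0.47) and -2.71 ± 1.15 from flox livers (adjusted p = 0.095). Sav1 minus Mst1/2 surrounding livers gave -2.65 ± 1.04 (adjusted p = 0.25).

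Cyp7a1, the rate-limiting enzyme of the classical route, was called in no comparison. It read 9.64, 12.91 and 13.95 (lowest, median and highest) in Sav1 tumours and 10.35, 11.43 and 13.50 in Sav1 surrounding livers, against 12.60, 12.32 and 11.51 in Sav1 flox livers. Of the 11 Sav1 tumours, 8 lay above and 2 below every flox liver. The difference was 0.49 ± 0.84 (95% CI -1.23 to 2.22, adjusted p = 0.68). Cyp7a1 read 9.64, 7.19, 13.85 and 10.49 in Mst1/2 tumours, 9.72, 11.21 and 10.54 in surrounding and 10.27, 10.42 and 11.40 in flox livers of that line, and 12.83 and 12.45 in wild-type livers. The 4 Mst1/2 tumours spread over 6.66 log2 units. Sav1 tumours were 2.34 ± 0.76 higher than Mst1/2 tumours (adjusted p = 0.075). The difference was 1.31 (adjusted p = 0.44) without Mst1/2 tumour 2, 3.53 (adjusted p = 0.0032) without Mst1/2 tumour 3 and 2.64 (adjusted p = 0.028) without Sav1 tumour 4.

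Cyp27a1, the mitochondrial sterol 27-hydroxylase, fell in Sav1 tumours. Its brightest probe read 10.96, 12.69 and 14.06 (lowest, median and highest) in Sav1 tumours and 12.79, 13.52 and 13.92 in Sav1 surrounding livers, against 13.85, 14.31 and 13.83 in Sav1 flox livers. Of 11 tumours, 10 lay below every flox liver, and tumour 3 lay within their range. The difference was -1.28 ± 0.42 (2.43-fold lower, adjusted p = 0.020). All 3 Cyp27a1 probes fell in Sav1 tumours, with differences of -1.28 to -2.01. The call was lost within set A (-0.57, adjusted p = 0.43), with set as a block (-0.99, adjusted p = 0.16) and without Sav1 flox liver 2 (-1.13, adjusted p = 0.11). It was also lost with median scaling (-0.93, adjusted p = 0.10) and against wild-type livers (-1.24, adjusted p = 0.062). With only the groups compared in the fit the adjusted p was 0.096, and with replicate number as a block 0.51. Between Sav1 tumours and Sav1 surrounding livers Cyp27a1 was not called over all arrays, and within set C, with 2 tumours and 4 surrounding livers, it was (-1.70 ± 0.27, adjusted p = 0.022).

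In the Mst1/2 line Cyp27a1 read 12.03, 11.66, 13.31 and 12.97 in tumours, 13.31, 13.31 and 13.39 in surrounding livers and 13.80, 13.52 and 13.94 in flox livers. All 4 tumours and all 3 surrounding livers lay below the flox livers. The differences were -1.26 ± 0.49 in tumours (adjusted p = 0.070) and -0.42 ± 0.53 in surrounding livers (adjusted p = 0.76), and neither passed the test over all arrays. Within set B both were called, with a standard error of 0.38 in tumours (adjusted p = 0.038) and 0.13 in surrounding livers (adjusted p = 0.033). Those fits compared the same samples, with the spread taken from them alone. They called 32.9% and 29.4% of all genes, against 20.2% and 3.87% in the fit over all arrays.

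**Figure D2:**
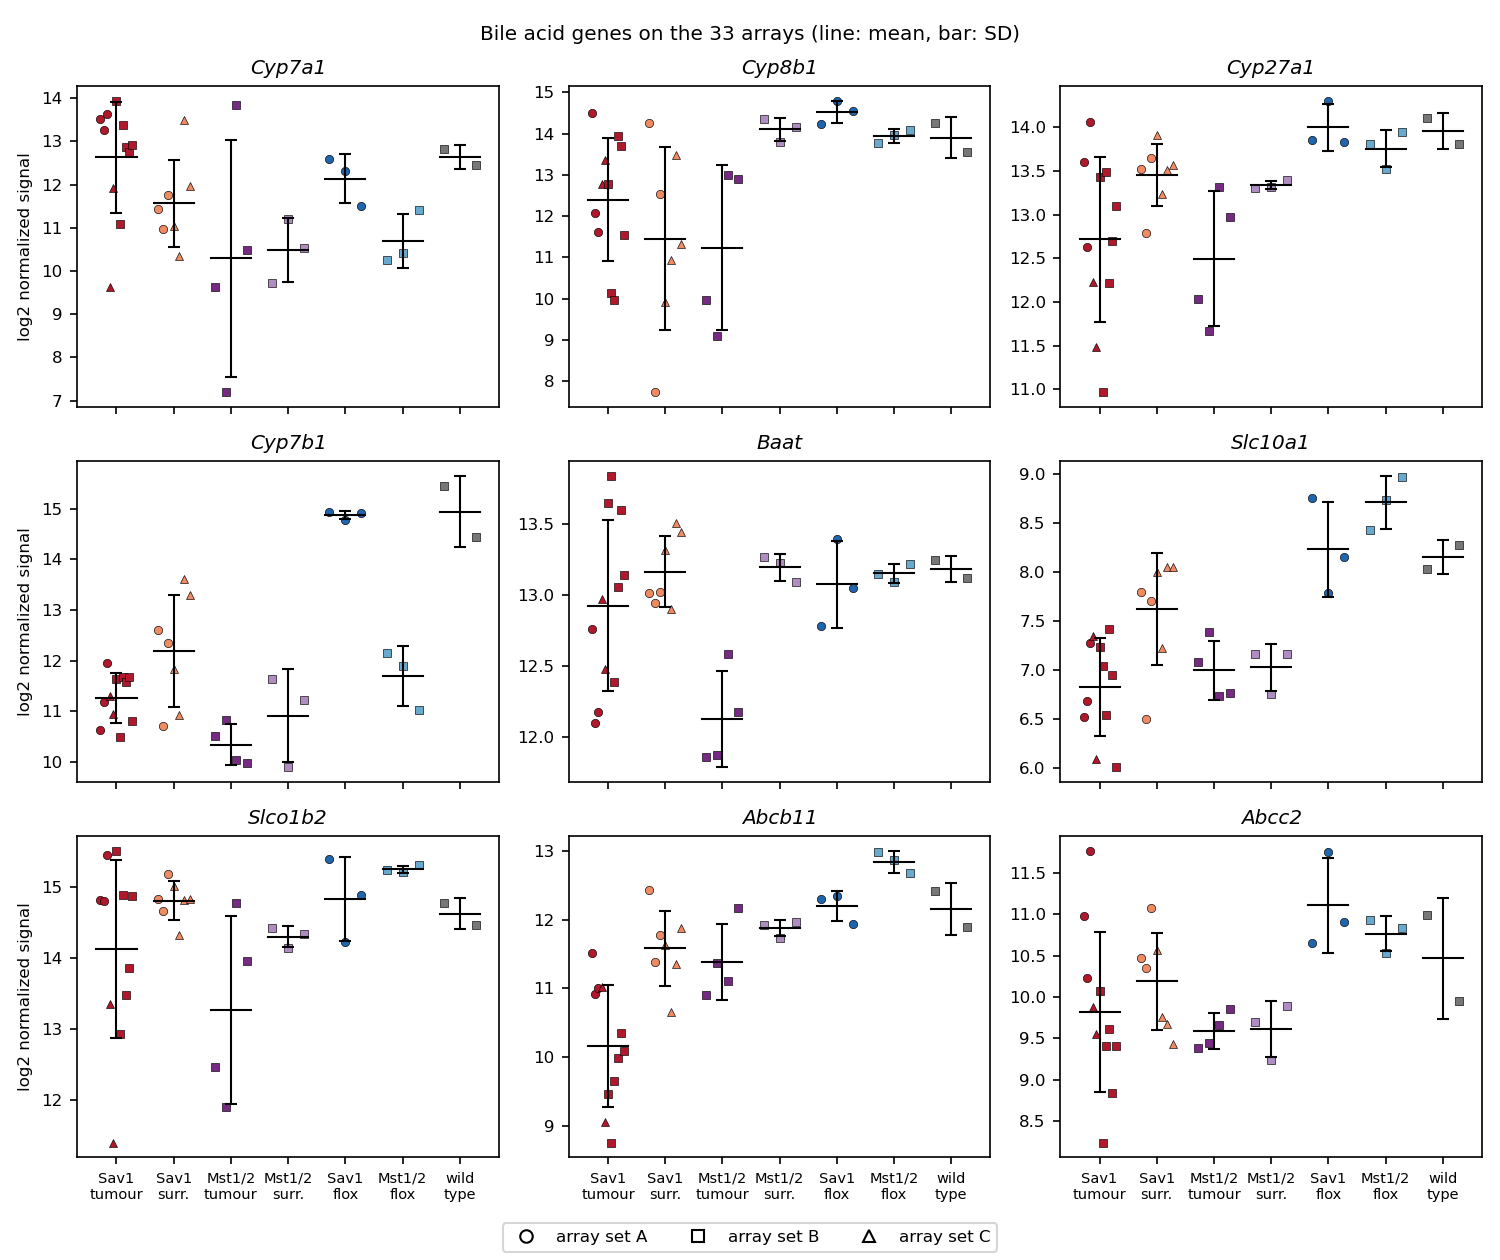
Log2 normalized signal of each of the 9 tested genes on every array by group; marker shape gives the array set, the line the group mean and the bar the SD. All 11 Sav1 tumours and all 7 Sav1 surrounding livers lie below the Sav1 flox livers for Cyp7b1, and Cyp8b1 spans 7.73 to 14.27 in Sav1 surrounding livers.

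Baat, the enzyme that conjugates bile acids to an amino acid, fell in Mst1/2 tumours. It read 11.86, 11.88, 12.58 and 12.18 there, against 13.27, 13.22 and 13.09 in Mst1/2 surrounding livers and 13.15, 13.09 and 13.22 in Mst1/2 flox livers. The tumours overlapped neither group. The difference from flox livers was -1.03 ± 0.31 (2.04-fold lower, adjusted p = 0.019). The difference between the same 4 tumours and the surrounding livers was -1.07 ± 0.31 (adjusted p = 0.24). The call against flox livers was lost on leaving out flox liver 4 or 6, or tumour 1 or 2 (adjusted p = 0.056 to 0.065).

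Baat was not called in the Sav1 line. It read 12.10, 12.98 and 13.84 (lowest, median and highest) in Sav1 tumours and 12.90, 13.02 and 13.51 in Sav1 surrounding livers, against 12.79, 13.40 and 13.05 in Sav1 flox livers, and 13.25 and 13.12 in wild-type livers. The tumours spread to both sides of the flox livers, 5 below and 3 above all of them. The difference was -0.15 ± 0.27 (95% CI -0.69 to 0.39, adjusted p = 0.69), and with array set as a block it was -0.71 (adjusted p = 0.041).

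Slc10a1, the sodium-dependent carrier that takes up most conjugated bile acids, fell in tumours of both lines and in Mst1/2 surrounding livers. It read 6.00, 6.94 and 7.42 (lowest, median and highest) in Sav1 tumours, against 8.75, 7.78 and 8.15 in Sav1 flox livers. Every Sav1 tumour lay below every flox liver, and tumours 1, 5 and 11 were not above background. The difference was -1.40 ± 0.29 (2.65-fold lower, adjusted p = 5.4e-04), and within set A it was -1.41 (adjusted p = 0.064). With replicate number as a block the adjusted p was 0.14, where 0.471% of all genes were called.

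In Mst1/2 tumours Slc10a1 read 7.08, 7.38, 6.73 and 6.77 and in Mst1/2 surrounding livers 7.15, 6.75 and 7.16, against 8.43, 8.73 and 8.97 in Mst1/2 flox livers. Tumours and surrounding livers overlapped, and both lay wholly below the flox livers. The differences were -1.72 ± 0.34 in tumours (3.29-fold lower, adjusted p = 6.8e-04) and -1.69 ± 0.36 in surrounding livers (3.22-fold lower, adjusted p = 0.0060). The tumour call held in each of 18 alternative analyses (adjusted p at most 0.030). The surrounding liver call was lost without surrounding liver 2 (-1.55, adjusted p = 0.053) and against the 2 wild-type livers, which read 8.03 and 8.27 (-1.13, adjusted p = 0.078).

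The mean of Slc10a1 in Sav1 surrounding livers lay between tumours and flox livers, with 6.50, 7.79 and 8.05 as lowest, median and highest. They were not called against flox livers (-0.61 ± 0.31, adjusted p = 0.19). The difference between Sav1 tumours and these surrounding livers was -0.79 ± 0.21 (1.73-fold lower, adjusted p = 0.013), although 2 of 11 tumours lay below all 7. With set as a block that adjusted p was 0.056, and with only the groups compared in the fit 0.054. The call was also lost within set A (-0.51, adjusted p = 0.76) and within set C (-1.12, adjusted p = 0.16). The probe is dim, so the fold changes of Slc10a1 understate the change on a scale without the added offset.

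Slco1b2, a sodium-independent organic anion carrier, was called in Mst1/2 tumours. Its brightest probe read 12.47, 11.90, 14.77 and 13.96 there, 14.43, 14.13 and 14.34 in Mst1/2 surrounding livers and 15.23, 15.21 and 15.30 in Mst1/2 flox livers. All tumours and surrounding livers lay below the flox livers. The tumour difference was -1.97 ± 0.67 (3.92-fold lower, adjusted p = 0.037) and was lost without flox liver 4, 5 or 6 or tumour 1 or 2 (adjusted p = 0.090 to 0.14). Against wild-type livers, at 14.78 and 14.47, it was -1.35 (adjusted p = 0.22), and with no filter on dim probes its adjusted p was 0.0504. Surrounding livers were called within set B (-0.95 ± 0.11, adjusted p = 2.3e-04), where 29.4% of all genes were. They were not called over all arrays, where 3.87% of all genes were.

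The 2 informative Slco1b2 probes gave different calls in Sav1 tumours. The brighter probe read 11.41, 14.80 and 15.50 (lowest, median and highest) in Sav1 tumours and 14.32, 14.83 and 15.18 in Sav1 surrounding livers, against 15.38, 14.22 and 14.88 in Sav1 flox livers, with a difference of -0.71 ± 0.57 (adjusted p = 0.35). The second probe, ILMN_1251837, averaged 10.61 ± 1.83 in Sav1 tumours and 13.10 ± 0.59 in Sav1 flox livers (SD, n = 11 and 3) and fell by 2.49 ± 0.80 (adjusted p = 0.018 over 23276 probes). In Mst1/2 tumours the same 2 probes gave -1.97 and -2.35 ± 0.94, the second with an adjusted p of 0.084. The remaining probe, ILMN_2730145, was above background on none of 33 arrays.

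**Figure D3:**
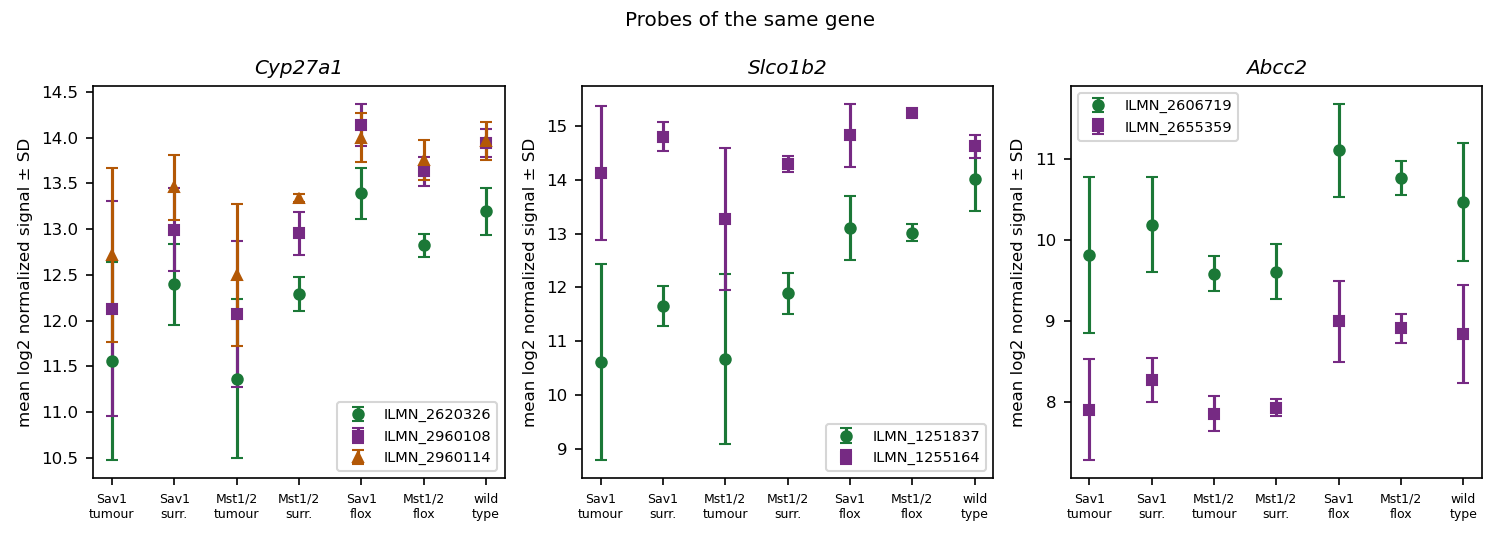
Group mean ± SD of each informative probe of Cyp27a1 (3 probes), Slco1b2 (2) and Abcc2 (2), in log2 normalized signal. The brighter Slco1b2 probe averages 14.12 ± 1.25 in Sav1 tumours and 14.83 ± 0.58 in Sav1 flox livers. ILMN_1251837 averages 10.61 ± 1.83 and 13.10 ± 0.59 in the same groups.

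Abcb11, the bile salt export pump, fell in tumours of both lines and was lower in Sav1 tumours than in the liver around them. It read 8.76, 10.10 and 11.52 (lowest, median and highest) in Sav1 tumours and 10.66, 11.64 and 12.43 in Sav1 surrounding livers, against 12.30, 12.34 and 11.94 in Sav1 flox livers. Every Sav1 tumour lay below every Sav1 flox liver, and 7 of 11 lay below all surrounding livers. The difference from flox livers was -2.03 ± 0.40 (4.08-fold lower, adjusted p = 4.0e-04), and that from surrounding livers was -1.42 ± 0.30 (2.67-fold lower, adjusted p = 0.0018).

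The size of the Abcb11 difference varied with the array sets used. Sav1 tumours 1, 2 and 3 (set A) read 11.52, 10.92 and 11.01, and tumours 6 to 11 (set B) read 9.46, 8.76, 9.66, 9.99, 10.36 and 10.10. Tumours 4 and 5 (set C) read 11.02 and 9.06. The sets hold different tumours, so array set and tumour-to-tumour differences cannot be told apart. Within set A the difference from flox livers was -1.05 ± 0.22 (adjusted p = 0.056), and with set as a block -1.19 (adjusted p = 0.030). With replicate number as a block it was -1.05 (adjusted p = 0.12), where 0.471% of all genes were called. Within sets A and C the difference from surrounding livers was -0.71 (adjusted p = 0.53) and -1.34 (adjusted p = 0.23), and with set as a block it was still called.

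In Mst1/2 tumours Abcb11 read 10.91, 11.37, 11.11 and 12.17 and in Mst1/2 surrounding livers 11.92, 11.74 and 11.97, against 12.99, 12.86 and 12.67 in Mst1/2 flox livers and 12.42 and 11.89 in wild-type livers. Both Mst1/2 groups lay wholly below their flox livers. The tumour difference was -1.45 ± 0.47 (2.73-fold lower, adjusted p = 0.030) and was lost without flox liver 4, 5 or 6 or tumour 1, 2 or 3 (adjusted p = 0.058 to 0.095). Against wild-type livers it was -0.76 ± 0.54 and was not called (adjusted p = 0.34). The surrounding liver difference was -0.96 ± 0.51 (adjusted p = 0.34). Within set B it was -0.96 ± 0.12 and called (adjusted p = 3.3e-04), where 29.4% of all genes were.

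Abcc2, which exports conjugated organic anions into bile, was lower in Sav1 tumours by both of its probes. The brighter probe read 8.24, 9.61 and 11.77 (lowest, median and highest) in Sav1 tumours and 9.44, 10.35 and 11.08 in Sav1 surrounding livers, against 10.66, 11.76 and 10.91 in Sav1 flox livers. Tumours 1, 2 and 3, with 10.98, 10.23 and 11.77, covered the range of the flox livers, and 9 of 11 tumours lay below all of them. The difference was -1.29 ± 0.44 (2.45-fold lower, adjusted p = 0.025). Within set A it was -0.12 ± 0.45 (adjusted p = 0.92), with set as a block -0.23 (adjusted p = 0.71), with median scaling -0.71 (adjusted p = 0.20) and without Sav1 flox liver 2 -0.97 (adjusted p = 0.18). Against wild-type livers it was -0.65 (adjusted p = 0.36) and without Sav1 flox liver 3 -1.39 (adjusted p = 0.055). With only the groups compared in the fit the adjusted p was 0.11, and with replicate number as a block 0.93.

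In the Mst1/2 line the second Abcc2 probe, ILMN_2655359, fell in tumours (-1.05 ± 0.34, adjusted p = 0.030 over all probes). The brighter one read 9.38, 9.45, 9.66 and 9.86 in tumours and 9.70, 9.24 and 9.89 in surrounding livers, against 10.93, 10.53 and 10.84 in Mst1/2 flox livers. Both groups lay wholly below the flox livers, and the differences were -1.18 ± 0.52 in tumours (adjusted p = 0.11) and -1.16 ± 0.55 in surrounding livers (adjusted p = 0.28). When each Mst1/2 group was fitted with its flox livers alone, all in set B, both were called, at -1.18 ± 0.15 in tumours (adjusted p = 0.0011) and -1.16 ± 0.18 in surrounding livers (adjusted p = 9.6e-04). In those fits 7 members fell in tumours, where 32.9% of all genes were called, and 5 in surrounding livers, where 29.4% were.

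Nr0b2, the repressor that closes the feedback loop, read above background on none of 33 arrays (group means 6.01 to 6.19), so its single probe gave no level in any group. Its activators were measured. Nr1h4, the bile acid receptor, read 11.93 in Sav1 tumours and 12.13 in Sav1 flox livers (-0.20 ± 0.26, adjusted p = 0.59), and 11.61 in Mst1/2 tumours and 12.04 in Mst1/2 flox livers (-0.43 ± 0.31, adjusted p = 0.34). Nr5a2 (LRH-1), with which FXR acts on bile acid genes, gave 0.53 ± 0.28 in Sav1 tumours (adjusted p = 0.14) and -0.52 ± 0.33 in Mst1/2 tumours (adjusted p = 0.28). Hnf4a, a hepatocyte master regulator, gave 0.51 ± 0.33 (adjusted p = 0.24) and 0.22 ± 0.39 (adjusted p = 0.74) in the same comparisons.

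Tumours were next set against the liver around them. In the Sav1 line 2 of 9 members fell, Abcb11 and Slc10a1, where 12.8% of all genes changed and 5.82% fell. In the Mst1/2 line no member was called, where 0.0642% of all genes were; Baat and Cyp8b1 had an unadjusted p under 0.05, and for both all 4 tumours lay below all 3 surrounding livers, as they did for 8.28% of all genes; 7.90% of all genes had an unadjusted p under 0.05. No member was called in the test of whether the tumour-minus-surrounding change differed between the lines, where 0.0856% of all genes were; 2 of 9 members and 5.66% of all genes had an unadjusted p under 0.05. The largest such difference was that of Cyp8b1, 3.81 ± 1.36 (adjusted p = 0.60): its difference was 0.94 ± 0.73 in the Sav1 line and -2.87 ± 1.15 in the Mst1/2 line.

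**Figure D4:**
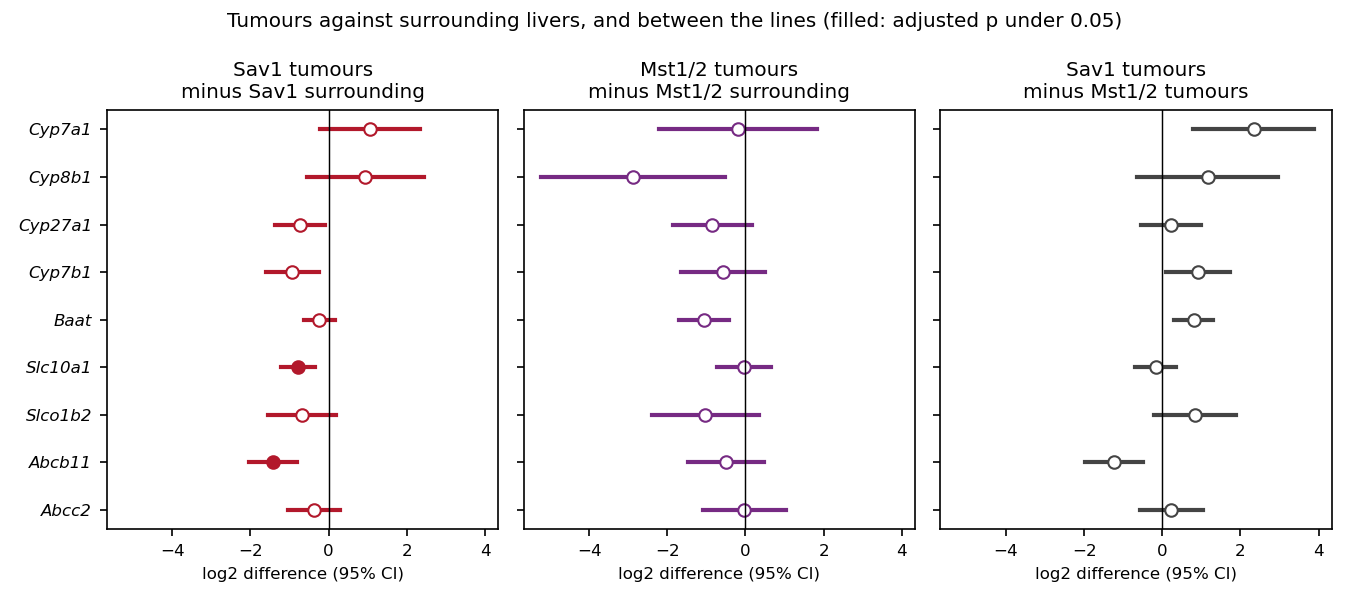
Differences of the 9 tested genes in log2 units with 95% confidence intervals for Sav1 tumours minus Sav1 surrounding livers, Mst1/2 tumours minus Mst1/2 surrounding livers, and Sav1 minus Mst1/2 tumours; filled points have an adjusted p under 0.05. Only Abcb11 (-1.42) and Slc10a1 (-0.79) are filled, both in the Sav1 line.

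No member passed the test between Sav1 and Mst1/2 tumours, where 3.8% of all genes changed; 4 of 9 members and 19.0% of all genes had an unadjusted p under 0.05. For Abcb11 the difference between Sav1 and Mst1/2 tumours was -1.22 ± 0.36 (adjusted p = 0.054), with 7 of 11 Sav1 tumours below all Mst1/2 tumours. Baat was 0.80 ± 0.24 higher in Sav1 tumours (adjusted p = 0.054), with 7 of 11 above all Mst1/2 tumours. Within set B, which holds Sav1 tumours 6 to 11 and all Mst1/2 tumours, both passed: Abcb11 at -1.67 ± 0.33 (adjusted p = 0.018) and Baat at 1.16 ± 0.28 (adjusted p = 0.039), where 5.61% of all genes were called. With set as a block in the fit over all arrays, Abcb11 (adjusted p = 7.6e-04), Baat (adjusted p = 3.1e-04) and Cyp7a1 (2.54, adjusted p = 0.043) passed, where 13.7% of all genes did.

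No member passed the test between Sav1 and Mst1/2 surrounding livers, where 0.949% of all genes changed; Cyp8b1 and Cyp7b1 had an unadjusted p under 0.05, as did 12.8% of all genes. Cyp7b1 was 1.27 ± 0.47 higher in Sav1 than in Mst1/2 surrounding livers (adjusted p = 0.21). Samples with the same replicate number deviated together here, with correlations of 0.184 to 0.339 over 3 pairs. With the replicate number as a block, over those pairs, Abcc2 (1.02 ± 0.14, adjusted p = 0.021) and Cyp7b1 (0.97 ± 0.12, adjusted p = 0.020) were called, where 6.1% of all genes were. No label links the 2 lines by these numbers.

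Single tumours differed in how many members were low. In Sav1 tumours between 5 and 8 of the 9 members lay below every Sav1 flox liver, in Sav1 surrounding livers between 4 and 7, in Mst1/2 tumours 8 or 9 and in each Mst1/2 surrounding liver 6. Of all genes, 27.9% to 33.03% lay below every Sav1 flox liver in single Sav1 tumours, 25.6% to 32.9% in Sav1 surrounding livers, 36.7% to 37.8% below every Mst1/2 flox liver in Mst1/2 tumours and 32.3% to 35.3% in Mst1/2 surrounding livers. The median deviation of the members from the flox mean was -0.31 in Sav1 tumour 1 and -2.87 in Sav1 tumour 7, with the other Sav1 tumours between them. Tumours 5 and 7 held the lowest levels among the Sav1 tumours of Cyp27a1 (11.49 and 10.96), Slco1b2 (11.41 and 12.92) and Abcb11 (9.06 and 8.76). Tumour 7 had the highest Baat of the Sav1 tumours, 13.84.

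Markers of other liver cells moved with some of these groups, and their part in the results was not tested. Against flox livers, 33.3% of all genes changed in Sav1 tumours and 20.2% in Mst1/2 tumours. In surrounding livers 10.5% changed in the Sav1 line and 3.87% in the Mst1/2 line. All 10 hepatocyte markers were tested, and their summed signal was 257654 to 331953 in Sav1 tumours, 291512 to 316352 in Sav1 flox livers, 289932 to 308552 in Mst1/2 tumours and 300456 to 313446 in Mst1/2 flox livers. One of them fell in Sav1 tumours, Apob (-0.76, adjusted p = 0.042), and none in Mst1/2 tumours. Fgb, also among the 10, was above background on no Sav1 flox array. Alb averaged 7.75 in Sav1 flox and 10.26 in Mst1/2 flox livers. Ttr and Apoa1 each averaged 15.57 in Sav1 flox livers, so the brightest probes weigh most in the sum. Of 5 biliary markers tested among 8, 1 rose in Sav1 tumours and 2 in Mst1/2 tumours, and their summed signal was 1022 to 22308 in Sav1 tumours and 821 to 1157 in Sav1 flox livers, 5362 to 11204 in Mst1/2 tumours and 844 to 1088 in Mst1/2 flox livers. Surrounding livers were also above flox livers in this sum, at 6149 to 9028 in the Mst1/2 line and 1468 to 4926 in the Sav1 line. There 1 biliary marker was called higher in the Mst1/2 line and none in the Sav1 line. Krt19, Krt7 and Cftr were above background on no Sav1 flox array. Of 6 endothelial markers, 3 fell in Sav1 tumours (summed signal 769 to 8181, against 9144 to 11275 in Sav1 flox livers) and 2 in Mst1/2 tumours (920 to 14641, against 11049 to 13620 in Mst1/2 flox livers). Of 7 macrophage markers, 5 rose in Sav1 surrounding livers (summed signal 14182 to 46315, against 4337 to 7438 in Sav1 flox livers), 3 rose and 3 fell in Sav1 tumours (3778 to 27986), and 2 rose and 1 fell in Mst1/2 tumours (9855 to 16050, against 6528 to 7358 in Mst1/2 flox livers). Of 4 neutrophil markers, all rose in Sav1 surrounding livers (summed signal 2714 to 10329, against 333 to 552 in Sav1 flox livers), 2 in Sav1 tumours (656 to 8455) and 2 in Mst1/2 tumours (1288 to 8648, against 474 to 703 in Mst1/2 flox livers). Of 4 lymphocyte markers, 2 rose in Sav1 tumours (381 to 1689) and 2 in Sav1 surrounding livers (433 to 1287), against 298 to 360 in Sav1 flox livers. Of 8 stellate cell and fibroblast markers, 3 rose and 2 fell in Sav1 tumours (1727 to 20704, against 13615 to 17058 in Sav1 flox livers) and 1 rose in Mst1/2 tumours (7942 to 31516, against 13470 to 17355 in Mst1/2 flox livers).

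Genes of the pathway outside the 10 members also fell in tumours. Of 51 such genes 45 were tested, and in Sav1 tumours 3 rose and 18 fell, with a median difference of -0.46. Over all genes 33.3% changed and 16% fell in that comparison. Among 13 synthesis genes 7 fell and 1 rose. Hsd3b7, the sterol dehydrogenase that follows the 7α-hydroxylases, fell by 1.64 ± 0.30 (adjusted p = 1.5e-04), and Slc27a5, which activates bile acids before Baat acts, fell by 1.54 ± 0.39 (adjusted p = 0.0032). Ch25h, cholesterol 25-hydroxylase, rose by 2.03 ± 0.60 (adjusted p = 0.011), with 1 of 3 Sav1 flox livers above background.

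Among 14 transport genes 5 fell and 1 rose in Sav1 tumours, where 33.3% of all genes changed and 16% fell. Slco2b1, an uptake carrier, fell by 1.94 ± 0.48 (adjusted p = 0.0028) and Abcc6, a hepatocyte ABC transporter, fell by 1.84 ± 0.34 (adjusted p = 2.1e-04). Abcc4 (MRP4), a pump that moves bile acids back into blood, rose by 1.42 ± 0.38 (adjusted p = 0.0051). Among 18 regulators 6 fell and 1 rose: Nr1i3 (CAR), a xenobiotic receptor, fell by 3.08 ± 0.69 (adjusted p = 0.0012), and Dbp, a transcription factor of the clock output, rose by 2.69 ± 0.76 (adjusted p = 0.0078). Dbp swings over the day, sampling times were not in the labels, and Dbp read 7.84 to 12.63 in Sav1 flox, 8.03 to 9.83 in Mst1/2 flox and 13.46 to 13.50 in wild-type livers.

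In Mst1/2 tumours 3 of the 45 pathway genes rose and 11 fell, where 20.2% of all genes changed and 8.95% fell. Nr1i3 fell by 3.59 ± 0.81 (adjusted p = 0.0022), Slco1a4, an organic anion carrier, by 2.47 ± 0.84 (adjusted p = 0.036), Abcc6 by 2.03 ± 0.40 (adjusted p = 7.5e-04), Slco2b1 by 1.83 ± 0.56 (adjusted p = 0.021) and Slc27a5 by 1.61 ± 0.45 (adjusted p = 0.012). Dbp rose by 3.53 ± 0.89 (adjusted p = 0.0057) and Abcc4 by 1.68 ± 0.44 (adjusted p = 0.0075). Gpbar1 (TGR5), a membrane bile acid receptor, was called higher (adjusted p = 0.037) but was above background on 2 of 4 tumours and none of the flox livers.

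**Figure D5:**
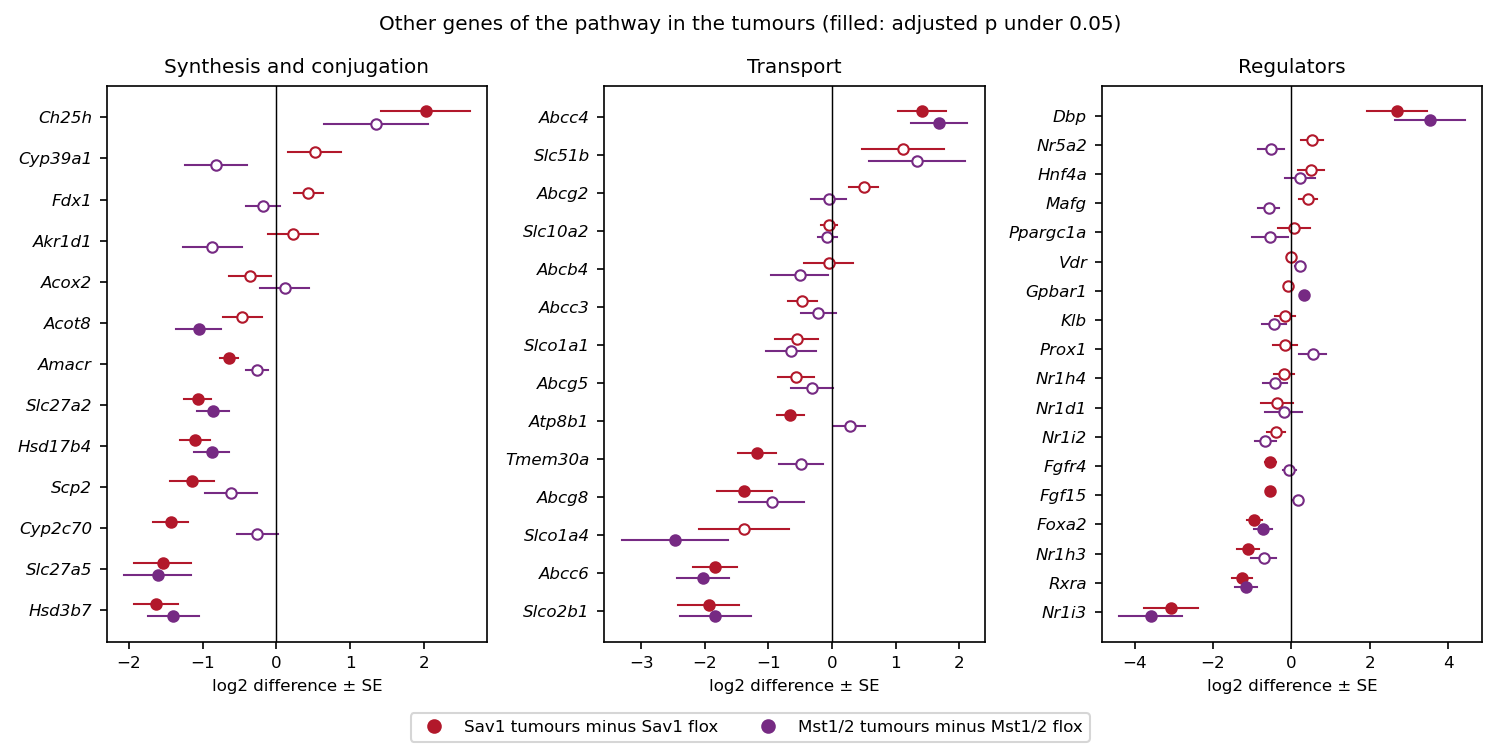
Differences (log2, ± SE) from their own flox livers of the 45 other tested genes of the pathway in Sav1 tumours and in Mst1/2 tumours. Nr1i3 lies lowest in both, at -3.08 and -3.59, and Dbp highest, at 2.69 and 3.53.

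In Sav1 surrounding livers 1 pathway gene rose, Dbp (2.50 ± 0.81, adjusted p = 0.045), and 10 fell, the largest falls being Hsd3b7 (-1.21 ± 0.31, adjusted p = 0.015), Abcc6 (-1.21 ± 0.37, adjusted p = 0.033), Foxa2 (-0.86 ± 0.20, adjusted p = 0.0092), Rxra (-0.80 ± 0.26, adjusted p = 0.045) and Hsd17b4 (-0.80 ± 0.21, adjusted p = 0.019). In Mst1/2 surrounding livers Cyp39a1, another oxysterol 7α-hydroxylase, fell by 1.68 ± 0.45 (adjusted p = 0.031) and Slc27a2 by 0.91 ± 0.23 (adjusted p = 0.019). Over all genes 10.5% changed and 5.48% fell in Sav1 surrounding livers. In Mst1/2 surrounding livers 3.87% changed and 1.32% fell.

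Within the Sav1 line, tumours differed from surrounding livers in 9 of the 45 pathway genes, where 12.8% of all genes changed and 5.82% fell. Abcc4 rose by 1.24 ± 0.28 (adjusted p = 0.0035) and 8 fell, led by Nr1i3 (-2.81 ± 0.51, adjusted p = 4.1e-04), Slco1a4 (-2.01 ± 0.53, adjusted p = 0.011), Slco2b1 (-1.74 ± 0.36, adjusted p = 0.0013), Slc27a5 (-1.24 ± 0.29, adjusted p = 0.0040) and Cyp2c70 (-1.05 ± 0.18, adjusted p = 1.6e-04), which makes the muricholic acids of the mouse. Within the Mst1/2 line none was called, where 0.0642% of all genes were. Sav1 tumours had more Abcc6 (1.16 ± 0.31, adjusted p = 0.032) and less Cyp39a1 (-1.40 ± 0.32, adjusted p = 0.013) and Cyp2c70 (-0.80 ± 0.21, adjusted p = 0.031) than Mst1/2 tumours. Between these tumour groups 3.8% of all genes changed.

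For the 3 members with the widest range of group means, the genes with the most similar pattern were found by the root mean square difference of levels over the 33 arrays, after each gene was centred on its own mean. Cyp7b1, whose SD over the arrays was 1.54, was closest to Susd4 (0.679), Ttc39c (0.692) and Elovl3 (0.738). Cyp8b1 (SD 1.84) was closest to Enho (1.30), Car3 (1.37) and Slc22a28 (1.40), which is a loose likeness. Abcb11 (SD 1.08) was closest to Asl (0.456), Ggcx (0.500) and Insig2 (0.502). These arrays share their groups and array sets, so the figures describe the pattern in these samples and no more.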

How the data were processed

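The authors hybridised labelled RNA to Illumina MouseWG-6 v2.0 arrays and exported signals with BeadStudio (version not given in the sources used here), per the labels' protocols and the submitters' processing notes. The deposited signals are linear probe intensity values, 1 column per array, not normalized between arrays. The authors' second table holds log2 values, which match log2 of the quantile-normalized signals within 0.0050. Its processing steps are not given in the sources used here. No array was pooled, and precision is limited by the number of arrays.

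From the deposited intensity values, background was corrected with normexp (offset 50), arrays were quantile normalized and log2 was taken (R 4.3.3, limma 3.58.1). Above background means above the 99th percentile of the signals below each array's mode mirrored about it. Of 45281 probes, 34885 had 1 gene symbol, 18 several and 10378 none; 23276 with 1 gene above background on at least 3 arrays were kept. The brightest of them by mean over all arrays stands for its gene. One limma model (lmFit, eBayes) was fitted to 33 arrays in 7 groups, with Benjamini-Hochberg adjustment over 14018 genes; single probes were adjusted over 23276. The procedure was tested on simulated data. Figures were drawn with matplotlib 3.10.9 in Python 3.11.15.

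All members are named. Of the other pathway genes, up to 5 rises and 5 falls per comparison are named, with regulators of Nr0b2. Members and lists were chosen with earlier results of these data known. Alternatives were the offset, median scaling, the authors' log2 table, no filter, probe means, a trended robust eBayes, only the groups compared, array set and replicate number as blocks, single sets, other control groups, and each array left out. Same-numbered samples deviated together in each of 3 pairs only between the surrounding livers of the lines (correlations 0.184 to 0.339); the lowest correlation was under 0.1 in the other 5 comparisons checked. Between Sav1 tumours and Sav1 surrounding livers 5 of 7 pairs exceeded 0.1 (0.068 to 0.691), and 4 of 7 tumours correlated best with their own number.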

Additional observations from a re-analysis of the deposited data

Results flagged for a closer look

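Other genes of the pathway gave 5 results that stand out. Slc27a2, an acyl-CoA ligase of bile acid side-chain handling, read 13.43 in Sav1 surrounding liver 2, while the other 6 livers of that group read 14.07 to 14.43. The gap to the nearest liver was 0.636 of the group's range, above Dixon's 95% critical value for 7 samples, which chance passes in about 1 in 20 groups. That critical value is not adjusted for the number of genes and groups checked.

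Fgf15, the hormone that represses Cyp7a1, was near background, and its comparison between the lines has no measured baseline on the Mst1/2 side. The fitted Sav1 change minus the Mst1/2 change was -0.72 in tumours (adjusted p = 0.016) and -0.87 in surrounding livers (adjusted p = 0.0066). Fgf15 read 6.95 in Sav1 flox livers and 6.13 in Mst1/2 flox livers, where it was above background on none of 3 arrays, so these fitted values give no size for a difference between the lines.

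Cyp39a1 differed between the lines in surrounding livers, with a Sav1 change minus Mst1/2 change of 2.51 (adjusted p = 0.042). All 7 Sav1 surrounding livers lay above the mean of the Sav1 flox livers, by 0.84 on average, and all 3 Mst1/2 surrounding livers lay below that of the Mst1/2 flox livers, by values from -1.86 to -1.32. Cyp39a1 averaged 7.75 in Sav1 surrounding livers and 6.91 in Sav1 flox livers, and 7.96 in Mst1/2 surrounding livers and 9.64 in Mst1/2 flox livers. Both results involve the Mst1/2 flox livers, which are the group with Xist.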

How the results depend on the processing

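No called difference changed sign. Differences called in neither analysis changed sign in 92 cases, over 36 pairs of a gene and a comparison. Leaving out single arrays left 1356 results on their side of the threshold, moved 19 below it and 20 past it, and the other alternatives did so for 996, 28 and 38. Counts of members called, beside the counts of the report, were as follows. Sav1 tumours against flox livers (5 called) gave 3 with median scaling, 3 with only the groups compared, 1 within set A, 1 with the replicate block, 3 against wild-type livers and 3 to 5 on leaving out arrays, the lowest without Sav1 flox liver 2. Sav1 surrounding against flox livers (1) gave 2 with offset 16, 0 within set A, 0 with the replicate block, 3 against the mean of the 3 normal groups and 1 to 2 on leaving out arrays. Mst1/2 tumours against flox livers (4) gave 7 with only the groups compared, 7 within set B, 8 against the mean of the normal groups and 1 to 4 on leaving out arrays. Mst1/2 surrounding against flox livers (1) gave 5 with only the groups compared, 5 within set B, 2 against the mean of the normal groups and 0 to 1 on leaving out arrays. Sav1 tumours against surrounding livers (2) gave 1 with only the groups compared, 0 within set A, 1 within set C and 2 to 4 on leaving out arrays, the highest without Sav1 tumour 3. Sav1 against Mst1/2 tumours (0) gave 3 with set as a block, 2 within set B and 0 to 2 on leaving out arrays. Sav1 against Mst1/2 surrounding livers (0) gave 2 with the replicate block, and Mst1/2 against Sav1 flox livers (1) gave 2 with set as a block. The tumour-minus-flox difference between lines (0) gave 1 with only the groups compared. Apart from single arrays left out, counts over all genes that moved by more than 1.5 times were, for Sav1 tumours against flox livers (4665 genes), 2882 with only the groups compared, 2779 with set as a block, 460 within set A and 66 with the replicate block. For Sav1 surrounding against flox livers (1475) they were 563 with set as a block, 61 within set A, 0 with the replicate block and 2820 against the mean of the normal groups. For Mst1/2 tumours against flox livers (2831) they were 4605 with only the groups compared and 4250 against the mean of the normal groups, and for Mst1/2 surrounding against flox livers (543) 4121 with only the groups compared, 1649 against the mean of the normal groups and 1230 against wild-type livers. For Sav1 tumours against surrounding livers (1799) they were 1047 with only the groups compared, 6 within set A and 803 within set C. For Mst1/2 tumours against surrounding livers (9) they were 14 with only the groups compared, 17 with probe means, 18 with set as a block and 0 with the replicate block. For Sav1 against Mst1/2 tumours (532) they were 332 with median scaling, 91 with only the groups compared, 1920 with set as a block and 0 with the replicate block. For Sav1 against Mst1/2 surrounding livers (133) they were 82 with median scaling, 363 with only the groups compared, 742 with set as a block and 855 with the replicate block. For Mst1/2 against Sav1 flox livers (484) it was 53 with median scaling, and for the tumour-minus-flox difference between lines (157) 19 with median scaling, 102 with only the groups compared and 51 with set as a block. For the surrounding-minus-flox difference between lines (84) it was 31 with median scaling and 210 with only the groups compared. Leaving out single arrays moved the count for Sav1 tumours against flox livers to 2939 without Sav1 flox liver 2, and that for Sav1 surrounding against flox livers to 315 without Sav1 flox liver 2 and 770 without 3. For Mst1/2 tumours against flox livers it gave 1815, 1826 and 1822 without flox liver 4, 5 or 6. For Mst1/2 surrounding against flox livers it gave 230, 287 and 251 without those livers and 357, 184 and 286 without surrounding liver 1, 2 or 3. For Mst1/2 tumours against surrounding livers it gave 1 without surrounding liver 1 or 3 and 2, 2, 49 and 88 without tumour 1, 2, 3 or 4. For Sav1 against Mst1/2 tumours it gave 167, 168 and 293 without Mst1/2 tumour 1, 2 or 4. For Sav1 against Mst1/2 surrounding livers it gave 78 and 73 without Sav1 liver 4 or 7 and 29, 21 and 22 without Mst1/2 liver 1, 2 or 3. For Mst1/2 against Sav1 flox livers it gave 255, 226 and 234 without Mst1/2 liver 4, 5 or 6 and 233 and 238 without Sav1 liver 2 or 3. In the differences between lines the lowest and highest counts beyond 1.5 times were 79 and 104 for tumour minus flox (157), 39 and 53 for surrounding minus flox, and 4 and 20 for tumour minus surrounding (12). The causes of these moves were not tested.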
